A study of Mus musculus with 8 samples.

Results

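The 10 integrin genes described here are Itgb1, Itgb3 and Itgb5, which encode beta subunits, and Itga1, Itga3, Itga5, Itga7, Itga8, Itga9 and Itgav, which encode alpha subunits. Members were all probe sets of the deposited table whose annotation gave exactly 1 of these symbols. There were 32 such probe sets among 45037, from 1 for Itga7 to 6 for Itgb1, and 29 of them passed the filter on dim probe sets and were tested, at least 1 for each gene.

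Integrins are receptors made of 1 alpha and 1 beta chain that span the cell membrane and bind the extracellular matrix. Inside the cell their tails bind talin, kindlins and other adaptors that connect them to actin, so that in the aorta they carry the force of the contractile apparatus to elastic fibres, collagen and basement membrane. The beta 1 chain pairs with many alpha chains and the beta 3 and beta 5 chains with alpha v, and the alpha chain sets much of the choice of ligand: collagen for alpha 1, laminin for alpha 3 and alpha 7, fibronectin for alpha 5, and nephronectin and other ligands with an RGD sequence for alpha 8. Serum response factor (SRF) is a transcription factor that binds a DNA motif called the CArG box in muscle and cytoskeleton genes.

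Messenger RNA of the aorta was measured on 8 Affymetrix mouse arrays, 4 per group, from mice of 4 months. Mutants are labelled SRF-flex2neo -SM22CreERT2ki/+ and described as lacking SRF in smooth muscle, and controls are SRF-flex2neo littermates. Both groups were given tamoxifen intraperitoneally (i.p.), 1 mg for 3 days, with tissue taken 8 days later, so they share the tamoxifen and the floxed Srf gene and differ in the Cre knock-in. The Cre is inserted at the SM22 gene (Tagln), which is active in smooth muscle. Whether the other cells of the aortic wall keep Srf was not measured. The controls have no Cre, so Cre activity, the insertion at Tagln and loss of SRF cannot be told apart. The arrays are numbered in 2 sets by their titles, and arrays 1 and 2 of each group form set 1 and arrays 3 and 4 set 2. The labels leave unsaid the meaning of the set and whether every array is a mouse of its own, so a p-value here covers the spread between arrays, which may be technical. In whole-tissue RNA, fewer cells of a type and less RNA per cell cannot be told apart.

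Array medians were 3.72 to 3.98 on the log2 scale, and values ran from 0.9 to 15.82. Mutant 2 stood apart: it correlated with the other arrays at 0.961 to 0.974 over all probe sets, against 0.983 to 0.997 among the other 7. It also had by far the highest level of nerve and Schwann cell genes, 4.68 log2 units above the mean of the 8 arrays over the 8 such genes in the table, where the other arrays were at -1.10 to -0.53. The main results are therefore given with and without mutant 2. The smooth muscle genes Acta2 and Myh11 were at 15.36 and 14.48 in mutants, and both were lower there than in controls by the fitted difference. Acta2 lies near the top of the scale, where differences can be compressed. The brighter probe set of Srf differed by -0.20 (SE 0.19) between mutants and controls, by -0.485 in set 1, 0.085 in set 2 and -0.0090 without mutant 2, and the dimmer by -0.0325, -0.21, 0.145 and 0.065. Where the Srf probe sets lie relative to the deleted exons is not stated in the labels, so they do not check the deletion.

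Nearly all integrin probe sets were lower in the mutant aorta, none by enough to pass the adjusted threshold. Of 29 tested, 28 had a lower fitted value in mutants and 1, a dim probe set of Itgav, a higher one. In each of the 10 genes the brightest probe set was lower, where 55.1% of all 12176 genes tested were lower by that measure. Over all 27029 probe sets tested, 60% were lower in mutants. The median difference of the 29 was -0.28 on the log2 scale, against -0.03 over all probe sets, and the differences ran from -1.055 to 0.05. Probe sets of 1 gene measure the same RNA, and the 29 are not independent of each other.

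No integrin probe set had a limma adjusted p under 0.05 (lowest 0.433, Itgb3), and neither did any other probe set (0%). At an unadjusted limma p under 0.05, 10 of the 29 were lower, where 5.05% of all probe sets were, and 0 were higher, where 4.5% of all were. These 10 were all 4 probe sets of Itga5, 2 each of Itga3 and Itga9, and the brightest of Itgb1 and Itgb3. In 2 probe sets, of Itgb3 and Itga3, all 4 mutants lay below all 4 controls, as in 1.57% of all probe sets, and in 0 above them, as in 1.43%. Without mutant 2 there were 27 lower (54.2% of all probe sets), 7 lower at an unadjusted p under 0.05 (4.09%) and 3 without overlap (2.04%), and the median was -0.17, while it was -0.42 without mutant 1. The count of 10 was 1 without control 1, 3 without control 4, 4 without mutant 3, 5 without control 3 and 6 without control 2.

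**Figure D1:**
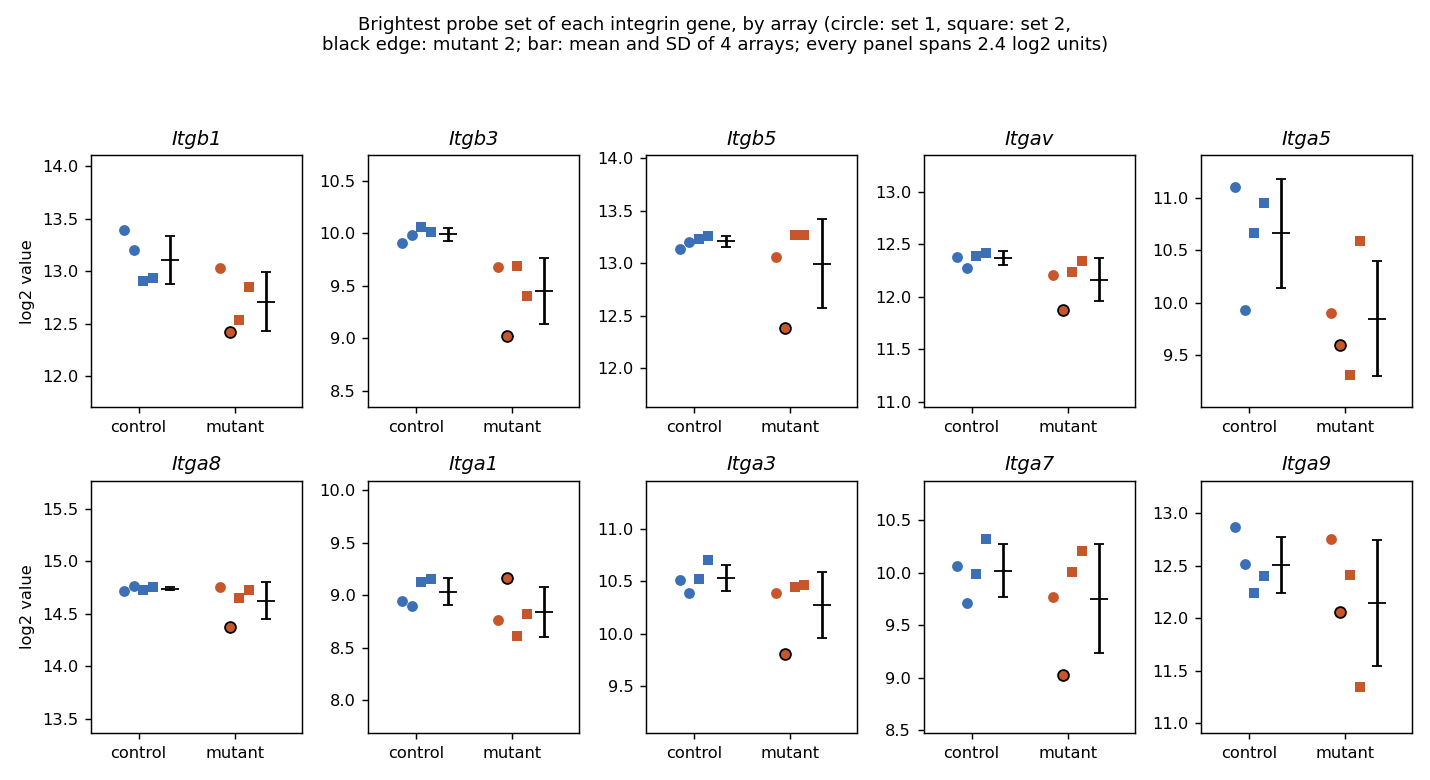
Log2 values of the brightest probe set of each of the 10 integrin genes on the 8 arrays, with controls in blue and mutants in orange. Bars give the mean and SD of 4 arrays. The groups are separate in Itgb3 and overlap in the other 9 genes, and mutant 2 is the lowest array in 7 of the 10.

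Both sets had mostly lower values in mutants. In set 1, 26 of 29 probe sets were lower in mutants (63.1% of all probe sets) with a median of -0.49, and in set 2, 26 of 29 were lower (52.1% of all) with a median of -0.16. Both sets gave a lower value for 23 of 29, against 35.2% of all probe sets. Mutant 2 was the lowest of the 8 arrays in 20 of 29 probe sets, which holds for 35.4% of all probe sets, and the lowest of set 1 in 27 of 29, against 51.3% of all. In set 2, mutant 3 was the lowest of the 4 arrays in 17 of 29, against 28.1% of all. No integrin probe set had an interaction of genotype and set at a limma adjusted p under 0.05 (lowest 0.824), where 0.0518% of all probe sets did. Between the sets themselves, 2 of 29 were lower in set 2 at a limma adjusted p under 0.05 (10.6% of all probe sets) and 0 were higher (10.8%).

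Since SRF acts through the CArG box, the promoter windows in the RefSeq table of build GRCm38.p6 (250 bases before to 50 after each start) were searched for it on both strands, the motif being its own reverse complement. The table held 9 windows for 8 of the 10 genes, all but Itga7 and Itgb3. None of the 9 holds an exact CArG box, which 1.63% of all 32851 windows do. At most 1 letter away from it, a match stands in 3 of the 9 windows, those of Itgb1, Itga1 and Itga5, against 21.1% of all windows. The 250 bases before the start of these 3 genes are shown with the match in capitals, and those of Srf itself, which hold 2 exact boxes and a further match 1 letter away, are shown as the pattern to compare with. A match is a description of these letters and no evidence of binding.
Itgb1, chr8:128685404-128685653, plus strand: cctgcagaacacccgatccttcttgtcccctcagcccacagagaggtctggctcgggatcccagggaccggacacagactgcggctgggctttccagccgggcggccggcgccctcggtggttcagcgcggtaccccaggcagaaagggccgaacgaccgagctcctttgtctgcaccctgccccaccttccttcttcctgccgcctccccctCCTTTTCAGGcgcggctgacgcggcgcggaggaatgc
Itga1, chr13:115101965-115102214, minus strand: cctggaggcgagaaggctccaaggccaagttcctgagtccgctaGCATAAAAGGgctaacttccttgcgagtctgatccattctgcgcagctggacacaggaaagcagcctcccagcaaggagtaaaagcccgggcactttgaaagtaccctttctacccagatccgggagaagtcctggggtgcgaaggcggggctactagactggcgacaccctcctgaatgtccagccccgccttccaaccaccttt
Itga5, chr15:103366792-103367041, minus strand: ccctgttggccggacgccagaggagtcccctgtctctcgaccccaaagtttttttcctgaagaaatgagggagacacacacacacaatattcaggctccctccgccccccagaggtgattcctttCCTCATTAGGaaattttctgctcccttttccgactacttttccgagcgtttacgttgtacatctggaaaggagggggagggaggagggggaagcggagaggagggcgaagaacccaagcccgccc
Srf, chr17:46556163-46556412, minus strand: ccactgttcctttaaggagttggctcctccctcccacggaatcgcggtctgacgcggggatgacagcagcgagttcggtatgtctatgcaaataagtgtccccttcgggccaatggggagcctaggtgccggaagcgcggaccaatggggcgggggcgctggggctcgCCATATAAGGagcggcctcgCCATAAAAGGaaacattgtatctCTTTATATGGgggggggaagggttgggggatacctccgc
In Itgb1 the match begins 37 bases before the start, in Itga5 125 bases and in Itga1 206 bases. In Srf the exact boxes begin 82 and 62 bases before the start.

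Among the beta chains, Itgb3 had the most separate groups. Itgb3 encodes the beta 3 chain, the partner of alpha v in the receptor that binds vitronectin, osteopontin and fibronectin. Its brighter probe set read 9.91, 9.98, 10.06 and 10.01 on the 4 control arrays and 9.68, 9.02, 9.69 and 9.40 on the mutant arrays, on the log2 scale. All 4 mutants lay below all 4 controls, and the controls lay close together. The means were 9.99 ± 0.06 (SD, n = 4) and 9.45 ± 0.32 (SD, n = 4). The difference was -0.54 (SE 0.15, 95% confidence interval -0.89 to -0.19), a level 1.46-fold lower, with a limma adjusted p of 0.433. By exact permutation of the arrays, two-sided as throughout, p was 0.0286, and 0.0556 when arrays were exchanged within sets only, in each case the smallest p that the design allows. The difference was -0.60 in set 1, -0.49 in set 2 and -0.40 without mutant 2.

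The dimmer Itgb3 probe set also differed between sets. Controls were at 5.82, 6.24, 3.83 and 4.09 and mutants at 5.29, 4.10, 4.12 and 2.94. The groups overlapped, and set 2 was lower than set 1 by 1.62 (limma adjusted p = 0.0258). The difference between genotypes was -0.88 (SE 0.38) and -0.55 without mutant 2. Beta 3 is also a subunit of the platelet receptor, whose alpha chain gene Itga2b was dim on all arrays (1.62 to 2.98) and not tested. Of the platelet markers, all 4 tested of the 7 in the table had higher values in mutants (median difference 0.91), where 55.1% of all genes tested were lower. Pf4, platelet factor 4, was at 7.78 ± 0.73 in controls and 8.80 ± 0.58 in mutants (SD, n = 4). The arrays did not separate in the mean level of the 7 markers. Mutant 1 (-0.30) lay below controls 1, 3 and 4 (-0.19 to 0.13), while mutant 2 was high (0.86) and control 2 low (-1.03).

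Itgb5 encodes the beta 5 chain, the other vitronectin-binding partner of alpha v described here. Its brightest probe set was at 13.13, 13.20, 13.23 and 13.26 in controls and at 13.06, 12.38, 13.27 and 13.27 in mutants. Mutant 2 was far below the others, and mutants 3 and 4 were the highest of the 8 arrays. The difference was -0.21 (SE 0.16, limma adjusted p = 0.656) and -0.03 without mutant 2. In the other 3 probe sets of Itgb5, differences of -0.28, -0.22 and -0.23 became -0.03, -0.02 and -0.06 without mutant 2. The first of these was -0.42 without mutant 1 and the second -0.13 without control 2.

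Itgb3 was also set against each of the other 9 genes within each array. The difference Itgb3 minus Itgb5, in the brightest probe sets, was -3.22, -3.22, -3.17 and -3.25 in controls and -3.38, -3.36, -3.58 and -3.87 in mutants. All mutants, mutant 2 included, lay below all controls. Such a difference is a ratio within an array, in which the absolute values depend on the probes and only the change between groups is read. It was -3.22 ± 0.03 in controls and -3.55 ± 0.24 in mutants (SD, n = 4), a change of -0.33. For Itgb3 minus Itgav the change was -0.34, with controls at -2.47, -2.29, -2.33 and -2.41 and mutants at -2.53, -2.85, -2.54 and -2.94. This comparison was made after the values were seen. Of the 45 pairs of the 10 genes, 4 had groups that did not overlap, each of them with Itgb3: those with Itgav, Itgb5, Itga8 and Itga3. Itgb3 alone among the 10 genes already had separate groups in its brightest probe set. The 4 pairs share those values and add no independent result. The share of such pairs among all genes was not computed, so the count of 4 has no background to compare with. With the other 5 genes the groups overlapped, and the change of Itgb3 minus the other gene was -0.35 for Itga1, -0.28 for Itga7, -0.18 for Itga9, -0.14 for Itgb1 and, in the opposite direction, 0.27 for Itga5. Each of the 4 had a two-sided exact permutation p of 0.0286 and a Benjamini-Hochberg adjusted p of 0.321 over the 45 pairs, so no pair passed. Itga8 lies near the top of the scale, where differences can be compressed.

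**Figure D2:**
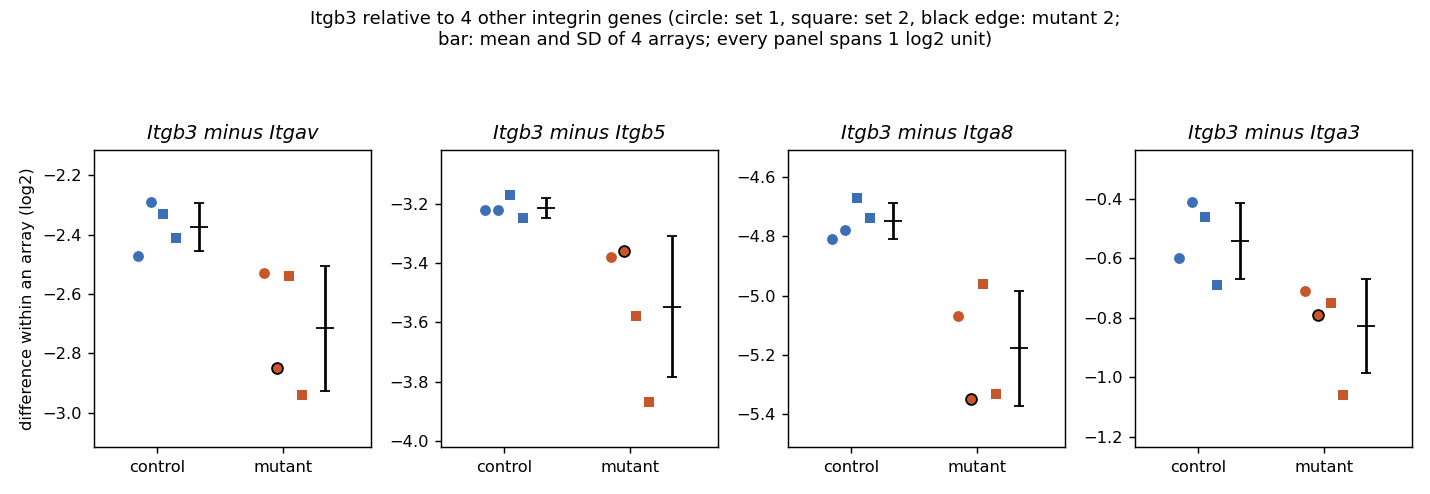
Itgb3 minus Itgav, Itgb5, Itga8 and Itga3, the 4 of 9 genes without overlap, within each array, in log2 units and in the brightest probe set of each gene, with controls in blue and mutants in orange and bars for the mean and SD of 4 arrays. In the 4 panels all mutants lie below all controls, with changes of -0.34, -0.33, -0.43 and -0.29.

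Itgb1 encodes the beta 1 chain, the common partner of the collagen, laminin and fibronectin-binding alpha chains. Its brightest probe set was at 13.39, 13.20, 12.91 and 12.94 in controls and at 13.03, 12.42, 12.54 and 12.85 in mutants. Within each set both mutants lay below both controls, but mutant 1 lay above controls 3 and 4, so the groups overlap. The means were 13.11 ± 0.23 and 12.71 ± 0.28 (SD, n = 4), with a difference of -0.40 (SE 0.16, 95% confidence interval -0.77 to -0.03, limma adjusted p = 0.51). The exact permutation p was 0.114 over all arrays and 0.0556 within sets, the latter the smallest possible, and the difference was -0.24 without mutant 2. The next probe set in brightness differed by -0.25 (SE 0.15) and by -0.11 without mutant 2. Of the 4 dimmer probe sets, 3 were tested, with differences of -0.10, -0.15 and -0.285 (-0.01, -0.095 and -0.17 without mutant 2, -0.18 for the first without mutant 1 and -0.13 for the last without control 2), and the fourth lay at 1.82 to 1.88 on all arrays and was not tested.

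The alpha chains that bind RGD ligands were Itga5, Itgav and Itga8. Itga5, the fibronectin receptor subunit, had the largest difference of the 10 genes among brightest probe sets, and also a wide spread between arrays. Its brightest probe set was at 11.10, 9.93, 10.67 and 10.95 in controls and at 9.90, 9.60, 9.31 and 10.59 in mutants. Mutants 1, 2 and 3 lay below all controls, and mutant 4 lay above control 2, so the groups overlap. The difference was -0.81 (SE 0.34, 95% confidence interval -1.62 to -0.00, limma adjusted p = 0.523), a level 1.76-fold lower, and the exact permutation p was 0.0571. It was -0.76 without mutant 2, -0.765 in set 1 and -0.86 in set 2.

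The other 3 Itga5 probe sets differed by -0.93 (SE 0.33), -1.055 (SE 0.43) and -1.005 (SE 0.42), and by -0.74, -0.77 and -0.69 without mutant 2, the last by -0.66 without control 1. The second in brightness read 8.60, 7.68, 8.51 and 9.19 in controls and 7.57, 6.69, 7.57 and 8.42 in mutants. Here too mutant 4 lay above control 2 and the other mutants below all controls. Adjusted limma p-values of the 4 probe sets were 0.48 to 0.523.

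Itgav encodes the alpha v chain. Its brightest probe set was at 12.38, 12.27, 12.39 and 12.42 in controls and at 12.21, 11.87, 12.23 and 12.34 in mutants. All mutants except mutant 4 lay below all controls, and the difference was -0.20 (SE 0.09, limma adjusted p = 0.535) and -0.12 without mutant 2. Of its 4 other probe sets, 2 were dim and not tested, 1 at a mean of 3.20 differed by 0.05 (SE 0.13), and the fourth differed by -0.28 (SE 0.31) and was lower in set 2 by 1.16 (limma adjusted p = 0.0385). Without mutant 2 the last difference changed sign, to 0.06, and it was -0.465 without mutant 1 and -0.18 without control 1. The difference of 0.05 ran from -0.087 without mutant 1 to 0.129 without mutant 2.

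Itga8 encodes the alpha 8 chain of smooth muscle, a receptor of nephronectin and fibronectin. Its brightest probe set was at 14.72, 14.76, 14.73 and 14.75 in controls and at 14.75, 14.37, 14.65 and 14.73 in mutants. Apart from mutant 2, the arrays lay within 0.11 of each other, near the highest value in the table. The difference was -0.115 (SE 0.09), -0.03 without mutant 2 and -0.18 without mutant 1. The dimmer probe set differed by -0.45 (SE 0.26) and by -0.15 without mutant 2, which at 12.83 was its lowest array.

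Itga1 encodes a chain of the collagen receptors, and its brightest probe set was the only 1 of the 29 in which mutant 2 was the highest array. It was at 8.95, 8.90, 9.13 and 9.16 in controls and at 8.77, 9.17, 8.61 and 8.82 in mutants. Mutants 1, 3 and 4 lay below all controls and mutant 2 above them. The difference was -0.19 (SE 0.14, limma adjusted p = 0.629), -0.32 without mutant 2 and -0.10 without mutant 3. By set it was 0.045 and -0.43. The other probe set differed by -0.25 (SE 0.17), by 0.085 in set 1 and by -0.585 in set 2, and there mutant 2 lay among the controls. It was -0.11 without mutant 3 and -0.13 without control 3.

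The laminin-binding chains Itga3 and Itga7 were low in mutant 2. The brightest Itga3 probe set was at 10.51, 10.39, 10.52 and 10.70 in controls and at 10.39, 9.81, 10.44 and 10.46 in mutants. Apart from mutant 2 the values overlap, and the difference was -0.255 (SE 0.13) and -0.12 without mutant 2. In the second in brightness, controls were at 9.09, 8.97, 8.77 and 9.04 and mutants at 8.68, 8.02, 8.68 and 8.74. Here the groups were separate, by 0.03 between control 3 and mutant 4, with a difference of -0.44 (SE 0.17, limma adjusted p = 0.511, exact permutation p = 0.0286) and -0.26 without mutant 2. The dimmest differed by -0.74 (SE 0.29) and by -0.44 without mutant 2. Its controls were at 7.43, 7.31, 6.33 and 5.93 and its mutants at 6.93, 5.75, 5.47 and 5.90. There mutant 3 was the lowest array, with mutant 2 next, and the sets differed by -0.95 (set 2 minus set 1, limma adjusted p = 0.0572).

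Itga7, the alpha 7 chain of muscle, has 1 probe set. Controls were at 10.06, 9.71, 9.99 and 10.32 and mutants at 9.77, 9.03, 10.01 and 10.21. Beside the low mutant 2 the groups lay in the same range, with a difference of -0.265 (SE 0.20, limma adjusted p = 0.644), -0.07 without mutant 2 and -0.15 without control 1.

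Itga9 encodes the alpha 9 chain, which binds tenascin-C and osteopontin. Its brightest probe set was at 12.87, 12.52, 12.24 and 12.40 in controls and at 12.76, 12.06, 12.41 and 11.35 in mutants. The lowest array here was mutant 4, not mutant 2, and the groups overlap. The difference was -0.36 (SE 0.26, limma adjusted p = 0.63), -0.135 without mutant 4, -0.24 without mutant 2 and -0.56 without mutant 3. The other probe sets differed by -0.585 (SE 0.22) and -0.76 (SE 0.26), and by -0.34 and -0.49 without mutant 2. In the dimmest, controls were at 9.58, 9.20, 8.65 and 8.49 and mutants at 9.05, 7.86, 8.08 and 7.89. Both mutants lay below both controls in each set, and the exact permutation p within sets was 0.0556, the smallest possible.

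**Figure D3:**
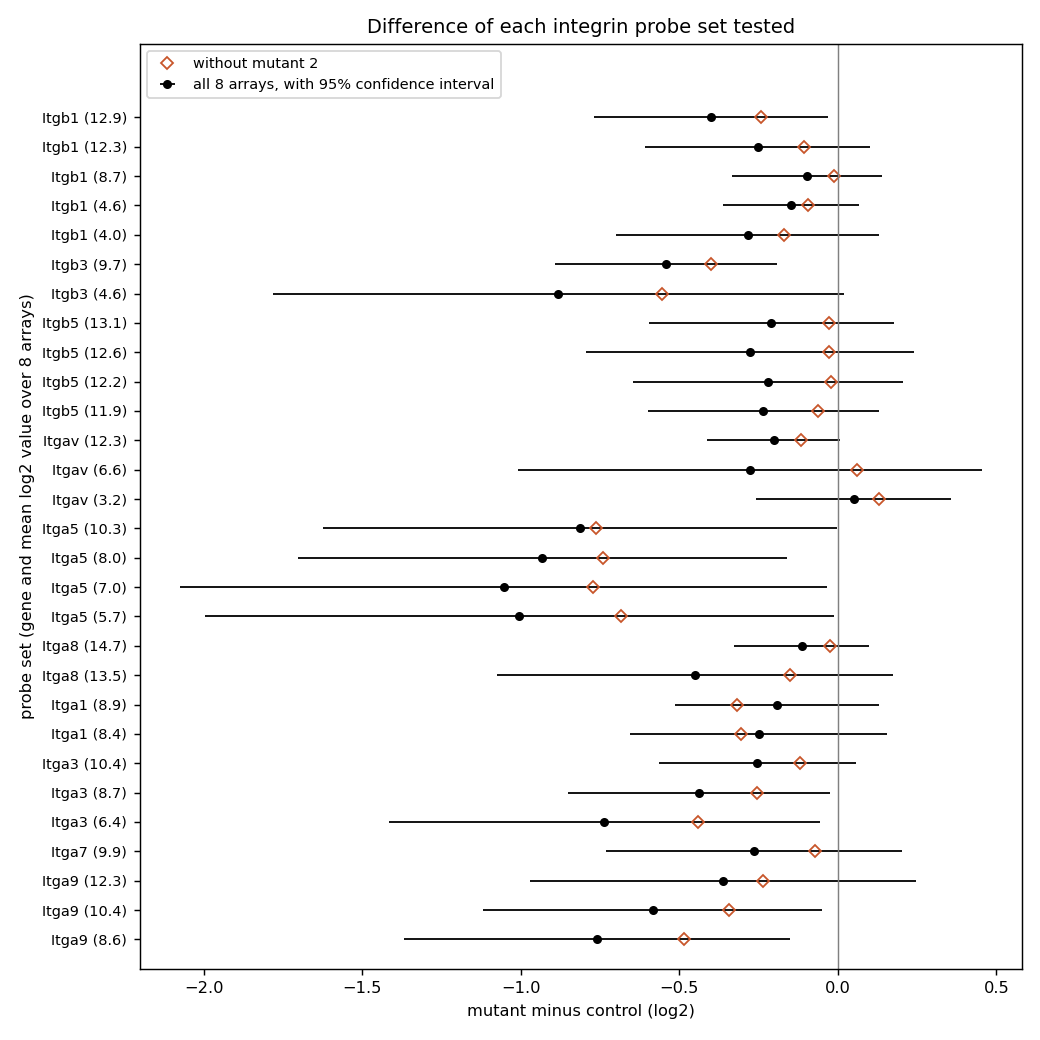
Mutant minus control in log2 units for the 29 integrin probe sets tested, labelled by gene and mean value over 8 arrays. Points and lines give the difference and its 95% confidence interval, and open diamonds the difference without mutant 2, which in the 4 probe sets of Itgb5 lies between -0.06 and -0.02 and in the 4 of Itga5 between -0.77 and -0.69.

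As a description of likeness, the arrays' values of each gene, centred on their mean, were compared with those of 7171 other genes over the 8 arrays, and the likeness is the mean absolute difference in log2 units. For Itgb3 the closest were Asb2 (0.06) and Fam13c (0.08), and for Itgb1 Dyrk1a and Usp9x (0.05 each). For Itgav they were Bcor (0.04) and Heca (0.05), for Itgb5 Rcan2 and Zfp84 (0.05 each), and for Itga3 Zfp839 (0.03) and Klhl11 (0.04). For Itga7 they were Kif13a (0.06) and Golt1b (0.07), for Itga8 Gm7694 and Fance (0.06 each), and for Itga1 Prelid3b (0.08) and Znrf1 (0.10). Itga5 and Itga9 had no gene as close: Pik3cb (0.21) and Eppk1 (0.225) were nearest to Itga5, and Atf6b (0.12) and Alkbh6 (0.15) to Itga9. Among the 10 integrin genes themselves, Itga3 and Itgav were closest (0.06) and Itga5 and Itga9 farthest apart (0.68). The measure is not scaled by spread, so it tends to be larger for genes that vary more. Itga5 and Itga9 had the largest SD of the 10 over the 8 arrays (0.66 and 0.47), and Itga8 had the smallest (0.13). These distances therefore do not rank how well the patterns match. Only genes with an SD of at least 0.2 were compared, so genes that vary as little as Itga8 or Itgav (SD 0.18) were left out. Mutant 2 was the lowest array in 16 of the 20 genes named as alike. Gm7694, beside Itga8, was at 6.46 to 6.51 on the other 7 arrays and at 5.85 in mutant 2, so that this likeness rests on 1 array.

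The other integrin subunits were mixed. Of 16 further genes 14 were in the table and 8 were tested; 3 were lower and 5 higher, 0 passed the adjusted threshold, and the median was 0.31, against -0.02 over the 12176 genes tested, of which 55.1% were lower. Without mutant 2 the median was 0.01. The 4 with the smallest p were Itgb2, Itgb4, Itga4 and Itgb8. Itgb2, the beta chain of leukocyte integrins, was at 2.89, 2.65, 3.10 and 3.08 in controls and at 5.10, 5.42, 3.08 and 3.30 in mutants. Mutants 1 and 2 were high and mutants 3 and 4 close to the controls, so the difference of 1.295 (SE 0.47) was 2.49 in set 1 and 0.10 in set 2. The control values of Itgb2 lay around the lowest mean that the filter kept (2.97). The filter used the mean of the 8 arrays, which mutants 1 and 2 raised. Its difference, and its place among the 5 higher genes, are therefore not independent of the filter. Itgb4, a chain of the laminin receptor of epithelia and nerve sheaths, differed by 1.015 (SE 0.41) and Itgb8, an alpha v partner that activates latent TGF-beta, by 0.60 (SE 0.38). Both were highest in mutant 2. Itga4, the alpha 4 chain that binds VCAM-1, differed by -0.32 (SE 0.16). Itga2b, Itgal, Itgam, Itgax, Itgb6 and Itgb7 lay below the filter.

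Genes that encode integrin ligands were mixed. Of 38 genes 35 were tested, 25 lower and 10 higher, where 55.1% of all genes were lower, with a median of -0.125 (-0.02 without mutant 2, -0.036 without control 1) and 0 past the adjusted threshold. Vcam1, a ligand of alpha 4 and alpha 9 integrins, differed by 0.75 (SE 0.16) and the basement membrane gene Nid1 by 0.835 (SE 0.23). Col18a1, a basement membrane collagen, differed by -0.58 (SE 0.18), and elastin, Eln, by -0.435 (SE 0.14). In Col18a1 all mutants lay below all controls, as in 1.77% of all genes. Vcam1, Nid1, Col18a1 and Eln are named because they had the smallest limma p in the list. Fn1, the fibronectin ligand of Itga5, differed by -0.125 (SE 0.05). It was at 14.22 ± 0.07 in controls and 14.10 ± 0.10 in mutants (SD, n = 4). It was named after its value was seen.

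Of the genes that bind integrin tails or signal from them, 44 of 50 were tested, 24 lower and 20 higher. Over all genes 55.1% were lower. The median of the list was -0.03, and 0 passed the adjusted threshold. In 7 of the 44 all mutants lay below all controls (1.77% of all genes) and in 4 above them (2.06%). The genes named below were chosen for the smallest limma p in the list. Leaving out 1 array moved the median to between -0.062 (without control 4) and -0.0010 (without mutant 2). Tln1, talin, which binds the beta tail and links it to actin, was at 12.73, 12.75, 12.56 and 12.65 in controls and at 12.46, 12.23, 12.43 and 12.32 in mutants. The groups did not overlap, with a difference of -0.31 (SE 0.07, limma adjusted p = 0.384). Fblim1, an adaptor that binds filamin, differed by -0.645 (SE 0.18), also without overlap. In the other direction were Fermt3, the kindlin of blood cells, with 1.36 (SE 0.35), and the kinase Fyn with 1.10 (SE 0.30), both without overlap.

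Markers of other cell types also differed between the arrays. All 10 smooth muscle markers were lower in mutants (median -0.26), where 55.1% of all 12176 genes tested were lower. Their mean level was 0.07 to 0.20 in controls and -0.22 to -0.12 in mutants, relative to the mean of the 8 arrays. These markers include Tagln, at which the Cre is inserted, and SRF itself binds muscle genes. They are therefore no measure of smooth muscle content alone. The mean level of the 10 integrin genes was 0.04 to 0.25 in controls and -0.48 to -0.02 in mutants. All 15 endothelial markers (median 0.955), all 16 leukocyte markers (median 1.22) and 12 of 13 fibroblast markers (median 1.03) were higher. Leukocyte markers were at 1.38 and 1.21 in mutants 1 and 2 and at -1.01 to 0.03 elsewhere, endothelial markers at 1.67 in mutant 2 and at -0.87 to 0.70 elsewhere, and fat markers at 2.66 in mutant 2 and at -1.30 to 0.58 elsewhere. Striated muscle markers were at 0.35 to 1.30 in set 2 and -0.93 to -0.40 in set 1. Of the defining markers, Pecam1 differed by 0.70, Pdgfra by 0.97, Ptprc by 1.79 and Adipoq by 1.11, and none was at the floor of the scale. The part of these cell types in the integrin differences was not tested.

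**Figure D4:**
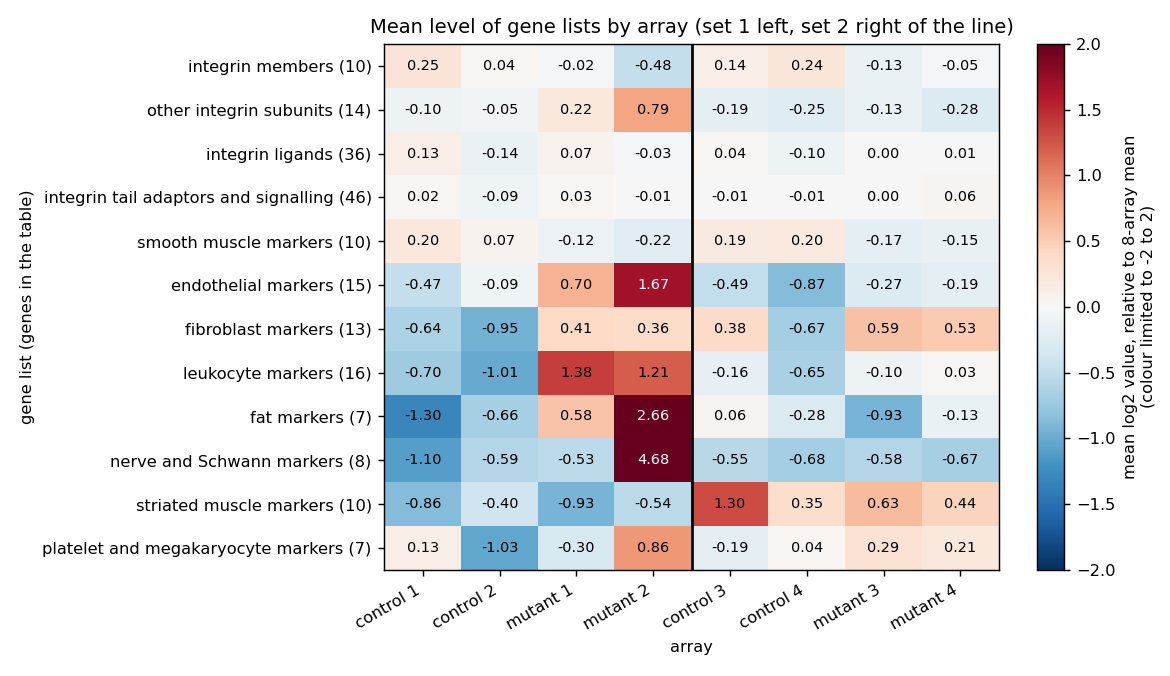
Mean log2 value of each gene list on each array, relative to the mean of the 8 arrays, with set 1 left and set 2 right of the line and the number of genes in the table in parentheses. The integrin members and smooth muscle markers are lower in mutants than in controls on the whole, and mutant 2 stands out in nerve and Schwann markers (4.68), fat markers (2.66) and endothelial markers (1.67).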

How the data were processed

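Per probe set and array, the authors deposited 1 value, taken here as log2 from its range (0.9 to 15.82). The submitters' processing notes name GCOS. How background was corrected and arrays were normalized is not given in the sources used. Per the labels' protocols, RNA came from a fibrous-tissue kit and 2 ug was labelled. Their number limits the precision. Groups came from the labels, and replicates were numbered by accession within a group.

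The platform annotation gave 1 symbol for 34945 of 45037 probe sets, several for 932 and none for 9160. Probe sets with several were not named. Probe sets in the lowest 40% by mean were not tested (lowest mean kept 2.97). Limma 3.58.1 in R 4.3.3 was fitted to the other 27029 with terms for genotype and for set, its mean-variance trend, and Benjamini-Hochberg adjustment, two-sided, at 0.05. Differences are mutant minus control, and SE is limma's moderated one. Unless stated otherwise, each array's values are listed in the order 1 to 4, and lists used the brightest probe set of each gene. Brightness differs between probes, so levels of different genes were not compared.

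Named were every integrin probe set, up to 4 genes with the smallest p per list, marker genes, and the 2 most alike genes per integrin (SD at least 0.2). The members and lists were chosen with earlier results of these data known. The procedure was tested on 3 simulated tables with 200 of 27029 probe sets changed. It recovered 12% of changes of 0.5 log2 units, 59% of changes of 1 and 86% of changes of 2. False calls were 3.67 on average. A probe set that did not pass the adjusted threshold is therefore not shown to be unchanged. Alternatives were other filters, normalizations and designs, each array left out and each set alone. Figures used Python 3.11.15 and matplotlib 3.10.9.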

Additional observations from a re-analysis of the deposited data

Results flagged for a closer look

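In 4 of the 29 integrin probe sets tested, mutant 2 lay far below the 3 other mutants: in 2 of Itga3 (9.81 and 8.02) and 2 of Itgb5 (11.73 and 11.51). No control array stood apart in this way. Chance flags about 1 in 20 groups of 4, and the probe sets share their arrays. In the brightest Itgb5 probe set, both mutants of set 1 lay below both controls and both mutants of set 2 above both controls. Its mutant minus control difference was -0.445 in set 1 and 0.025 in set 2, a change of 0.47, and limma's interaction gave an adjusted p of 0.824.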

How the results depend on the processing

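No integrin probe set passed an adjusted p of 0.05 in any of the 18 alternatives, in all of which limma was used; the lowest adjusted p was 0.192 (Itgb3). Of all probe sets, 10 passed with array weights and between 0 and 11 (without control 3) with 1 array left out. The number of integrin probe sets lower at an unadjusted p under 0.05, 10 as reported, was 5 with no set term, 6 with the equal numbers of set 2 as a replicate block, 0 in set 1 alone, 4 in set 2 alone, and 1 to 11 with 1 array left out. The deviations of equal numbers in set 2 had a correlation of 0.0091, a single value from 2 pairs, and whether the numbers pair the arrays is not stated in the labels.

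The sign turned in 7 probe sets. The probe set of Itgav with a mean of 3.20 went to -0.0225 with median centring and -0.095 in set 2 alone, and ranged from -0.087 (without mutant 1) to 0.129 with 1 array left out. That with a mean of 6.58 went to 0.051 with array weights and 0.095 in set 2 alone, and ranged from -0.465 to 0.059 (without mutant 2). A probe set of Itgb1 reached 0.0018 with array weights, those of Itga1 0.045 and 0.085 in set 1 alone, and 2 of Itgb5 0.025 and 0.02 in set 2 alone. The median of the tail adaptors was -0.10 with median centring, which moved the median of all probe sets to -0.11, and -0.10 in set 1 alone, and that of the ligands was 0.005 in set 2 alone.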
